A study of Mus musculus with 536 samples.

Results

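Blood of irradiated mice given bacterial lipopolysaccharide (LPS) was compared with blood of irradiated mice given no agent, at the same radiation dose. The comparison took every mouse of a small treatment set whose labels gave LPS or no treatment, a total body dose of 150 or 600 cGy of gamma radiation and a collection time of 6 hr after exposure. These were 22 of the 536 mice whose peripheral blood was profiled on Affymetrix mouse 430A 2.0 arrays to follow blood transcripts after irradiation. At 150 cGy there were 5 LPS mice and 6 untreated mice, and at 600 cGy there were 6 LPS mice and 5 untreated mice. The unirradiated mice of the same set, 6 given LPS and 6 untreated, and 59 irradiated LPS or untreated mice of a separate sex and treatment set (200, 300 or 600 cGy, also 6 hr) were set beside the 22. The model behind every SE and p was fitted to all 50 mice of the small set, and so takes its estimate of spread also from the 12 unirradiated LPS and untreated mice and from 16 mice given GCSF (a growth factor of neutrophils) at 0, 150 or 600 cGy, whose effects are not described. All mice were C57BL/6, 10 to 12 weeks old, with no transgene or mutation named. The LPS mice and their untreated controls had both been irradiated, so a difference between them is that of LPS on top of radiation. The labels give the gender of this set as unknown and do not state the dose or route of LPS or when it was given relative to radiation. They do not say whether mice of a group were housed or treated separately, so p-values measure the spread between these mice only.

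LPS is a component of the outer wall of gram-negative bacteria. It is recognised on myeloid cells by the receptor TLR4 with the co-receptors CD14 and MD-2 (gene Ly96). One arm of the receptor's signalling runs through the adaptor MyD88 to the transcription factor NF-kB and to inflammatory cytokines, and the other induces type I interferon and with it a large set of antiviral genes. Radiation acts on the same blood: lymphocytes die within hours, and the p53 pathway induces genes such as Cdkn1a.

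The values are deposited log2 signals per probe set, so a difference of 1 is a doubling of signal, and a level of 1 gene cannot be set against that of another. A group level is given as its mean ± SD, and a difference (LPS minus untreated) with the standard error (SE) of a limma model fitted to 12393 genes. "Rose" and "fell" mean an adjusted p (Benjamini-Hochberg, over all 12393 genes) under 0.05 for the mean of the differences at 150 and 600 cGy, unless a dose is named. The number of arrays limits the precision of every value.

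Several arrays stood apart. Untreated mouse 10 of the 0 cGy group resembled irradiated blood: of 433 genes that differed by 1 or more between the untreated 600 cGy mean and the other untreated 0 cGy mice, 98.2% lay nearer the 600 cGy mean in this mouse, against 0.8 to 7% in the other untreated 0 cGy mice (251 to 263 genes). Its Cdkn1a level was 10.47, and the other 5 lay between 7.03 and 7.47. Several comparisons with 0 cGy are therefore also given without it. Those that do not say so include it, as do the figures. Because its own values set mouse 10 apart, p-values without it are descriptions only for genes that radiation changes. Among the 22 irradiated mice the liver transcript Alb spanned 5.75 to 12.33 in LPS mice (median 8.01) and 5.22 to 13.87 in untreated mice (median 9.87), in blood drawn by cardiac puncture. The spread of log2 values over genes was narrower on LPS arrays (SD 1.94 to 2.04) than on untreated arrays (2.00 to 2.16). All 50 arrays of the set carried high Xist (10.41 to 12.49) and low Eif2s3y (2.93 to 3.64), a Y-linked gene, which is the pattern of female mice. No pair of arrays correlated above 0.9931.

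In irradiated blood LPS raised inflammatory chemokines and cytokines, interferon-induced genes and some neutrophil granule genes, and lowered genes of monocytes, T cells, B cells and MHC class II. Across all genes 3589 rose (29.0%) and 3233 fell (26.1%), so that 55.0% of the genes changed. Of these, 201 rose and 457 fell by at least 1 on the log2 scale, and the median over all genes was 0.06. Because so many genes passed in either direction, the size of a change and whether the LPS and untreated mice overlapped say more about a gene than the call alone. The LPS and untreated mice did not overlap at either dose for 280 genes that were higher with LPS (2.26%) and 723 that were lower (5.83%). With the array SD as a covariate 1625 genes rose and 2419 fell.

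The 12 largest rises were in 7 chemokine or cytokine genes (Cxcl10, Ccl3, Cxcl2, Ccl12, Il6, Cxcl1 and Cxcl9), the granule genes Ngp, Camp and Ltf, the lipase gene Lipg and the interferon-induced gene Ifit3. Cxcl10 encodes a chemokine that draws CXCR3-bearing T and NK cells. Its levels were 9.68, 10.58, 10.30, 10.88 and 10.50 in LPS mice at 150 cGy, against a lowest of 4.56, a median of 4.73 and a highest of 4.90 in untreated mice. At 600 cGy the lowest, median and highest levels were 10.62, 11.15 and 11.37 in LPS mice, against 4.82, 4.60, 4.91, 4.35 and 5.25 in untreated mice. Every LPS mouse stood far above every untreated mouse. The difference was 5.98 ± 0.18 (SE; adjusted p = 6.24e-30), a 63.3-fold change in signal. Lipg, which encodes endothelial lipase, differed by 5.88 ± 0.16 (adjusted p = 4.11e-31). Its levels were 9.97 to 10.90 in LPS mice and 3.82 to 5.54 in untreated mice. The 3 probe sets of Lipg ran from 0.39 to 5.88, and its lowest difference under any alternative processing was 3.99.

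The upstream DNA of 6 genes that rose is shown because it holds known short DNA motifs through which the 2 arms of LPS signalling act. Among the 12 largest rises, Ccl3, Ngp, Camp, Ccl12, Cxcl9 and Ltf held neither motif, in the forms searched, in the 250 bases before their start. Lipg had no RefSeq window and was not searched. The stretches run from the motif region to the base before the annotated transcription start, on the strand of the gene, with the motif in capitals. An interferon response element of the form GAAANNGAAA, or its reverse complement, is marked in Cxcl10, Ifit1 and Ifit3. A kappaB element of the form GGGNNTTTCC, or its reverse complement, is marked in Cxcl1, Cxcl2 and Il6. Other forms of either element were not searched and are not marked. Cxcl10 is therefore not shown to lack a kappaB element. The sequences are from RefSeq (mouse GRCm38.p6): Cxcl10 at chr5:92348890-92349109 (minus strand), Ifit1 at chr19:34640769-34640888, Ifit3 at chr19:34583359-34583528, Cxcl1 at chr5:90891135-90891244, Cxcl2 at chr5:90903789-90903898 and Il6 at chr5:30013004-30013113 (all plus strand).
Cxcl10: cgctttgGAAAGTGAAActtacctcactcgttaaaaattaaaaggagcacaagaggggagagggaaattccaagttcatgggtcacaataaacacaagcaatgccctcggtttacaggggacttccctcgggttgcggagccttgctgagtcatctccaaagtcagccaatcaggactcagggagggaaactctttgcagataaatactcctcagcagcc
Ifit1: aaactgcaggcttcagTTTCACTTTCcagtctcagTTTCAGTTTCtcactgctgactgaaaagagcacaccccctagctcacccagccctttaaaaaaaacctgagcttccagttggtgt
Ifit3: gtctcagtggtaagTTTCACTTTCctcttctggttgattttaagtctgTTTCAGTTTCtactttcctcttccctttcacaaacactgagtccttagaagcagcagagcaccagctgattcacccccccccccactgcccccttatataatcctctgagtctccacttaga
Cxcl1: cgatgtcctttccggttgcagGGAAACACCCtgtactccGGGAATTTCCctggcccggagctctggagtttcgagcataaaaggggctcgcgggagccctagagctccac
Cxcl2: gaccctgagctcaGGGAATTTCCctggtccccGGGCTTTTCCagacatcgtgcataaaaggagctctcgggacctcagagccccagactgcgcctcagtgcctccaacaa
Il6: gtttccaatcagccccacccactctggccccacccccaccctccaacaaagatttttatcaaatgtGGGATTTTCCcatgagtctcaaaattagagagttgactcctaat

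Both motifs were searched on both strands in the 250 bases before the start of 9882 of the 12393 genes, those with a RefSeq window, overlaps between motifs included. A gene with several windows counted once, if any of them held the motif. GAAANNGAAA lay in 331 of all 9882 genes (3.35%) and 8 of 50 that rose by at least 2 (16%). It lay in 11 of 103 genes that rose by 1 to 2 (10.7%) and 12 of 360 that fell by at least 1 (3.33%). GGGNNTTTCC lay in 176 of all 9882 (1.78%), 4 of the 50 (8%), 3 of the 103 (2.91%) and 5 of the 360 (1.39%). A motif bound by C/EBP factors in myeloid cells, TTGCNNAA, lay in 987 of all 9882 (9.99%). It lay in 7 of the 50 (14%), 19 of the 103 (18.4%) and 46 of the 360 (12.8%). Of 69 genes that rose by at least 2, 50 had a window. These shares describe letters in a fixed window and no test was made of them.

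**Figure D1:**
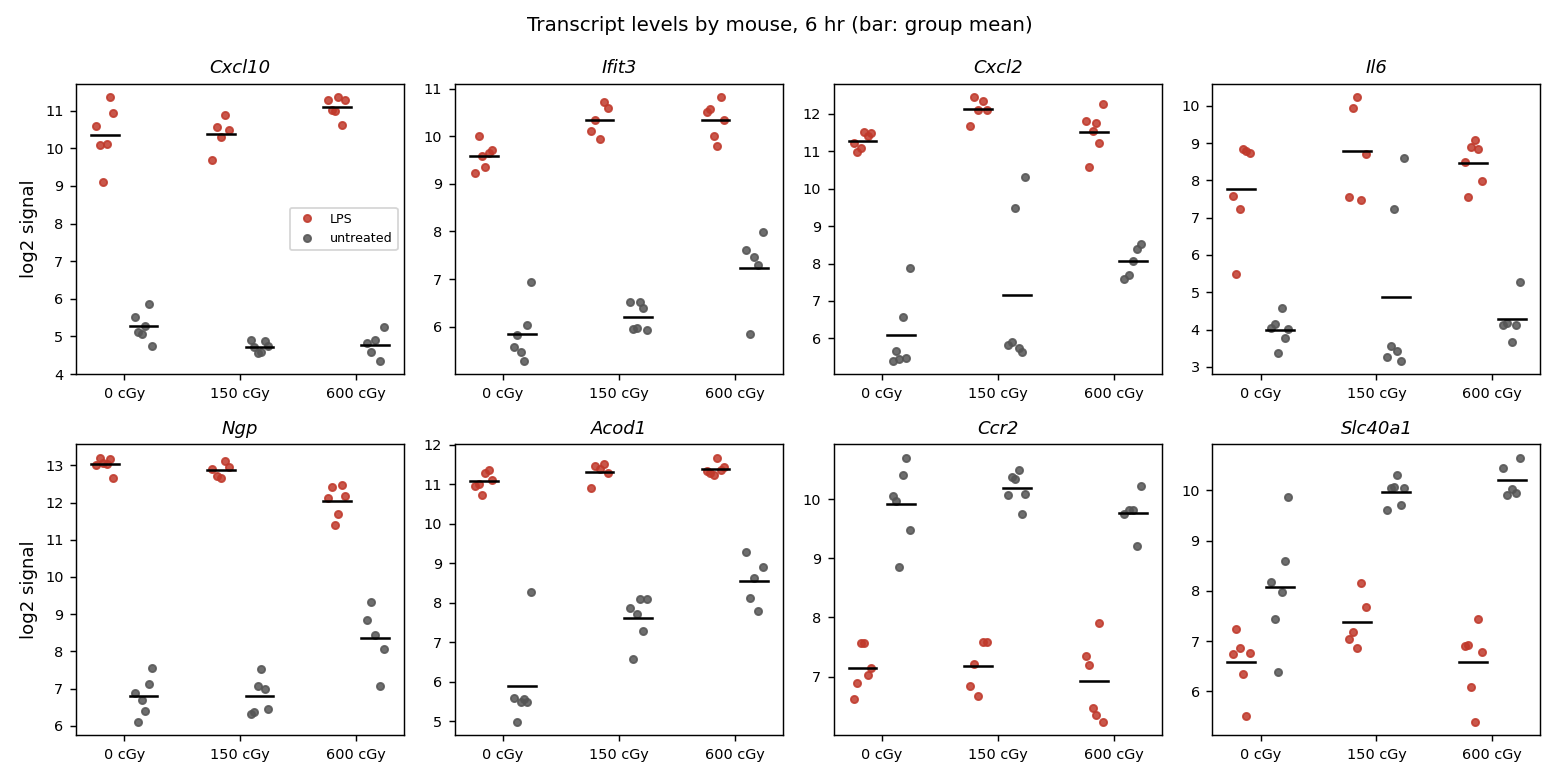
Log2 signal (vertical axis) of 8 genes in every LPS mouse (red, left of each pair) and untreated mouse (grey) at 0, 150 and 600 cGy, with bars at group means. At 150 and 600 cGy the LPS mice lie apart from the untreated mice for all 8 genes, except that 1 of 6 untreated mice at 150 cGy reaches the LPS range of Il6.

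Of 20 measured genes for LPS recognition and TLR adaptors 3 rose and 6 fell, with a median difference of -0.09. The falls were near the share of all genes that fell (26.1%), and the rises were below the share of all genes that rose (29.0%). The largest rise was in Trem1, an amplifying receptor of myeloid cells (3.06 ± 0.23), followed by the co-receptor Cd14 (1.63 ± 0.25, adjusted p = 6.9e-07). Clec7a, the beta-glucan receptor dectin-1, fell by 1.89 (SE 0.17), and Cd180, a TLR-like receptor, fell by 0.84 (SE 0.11). The receptor gene Tlr4 itself stood at 6.92 ± 0.43 and 6.69 ± 0.54 in LPS and untreated mice at 150 cGy, and at 6.36 ± 0.38 and 7.11 ± 0.25 at 600 cGy (SD). Its mean difference was -0.26 ± 0.19 (adjusted p = 0.236), and its other probe set gave 0.33. Map3k7, which encodes the kinase TAK1, fell by 0.67 (SE 0.08), with probe sets that ran from -0.67 to 0.22, and lost the call when probe sets were averaged.

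NF-kB feedback genes rose almost throughout the list: of 22 measured factors, feedback genes and targets 18 rose and 1 fell, with a median of 1.14. Of all genes 29.0% rose and 26.1% fell. Marcksl1 (2.85 ± 0.12), the stress gene Gadd45b (2.40 ± 0.11), Tnip1 (1.65 ± 0.10) and the RNase gene Zc3h12a (1.32 ± 0.09), both brakes on inflammation, had the smallest p-values. For 14 of the 22 all LPS mice were higher than all untreated mice at each dose, against 2.26% of all genes. Of 26 cytokine genes and decoys 19 rose and 3 fell (median 0.56). Tnf, which encodes tumour necrosis factor, stood at 7.99 ± 0.30 and 6.16 ± 0.21 in LPS and untreated mice at 150 cGy and at 7.94 ± 0.29 and 6.13 ± 0.19 at 600 cGy, a difference of 1.82 ± 0.10 (adjusted p = 2.07e-20). The anti-inflammatory cytokine Il10 rose by 2.66 (SE 0.15) and the receptor antagonist Il1rn by 3.24 (SE 0.20). Il1b, an abundant monocyte and neutrophil cytokine, rose by 0.66 (SE 0.21, adjusted p = 0.0064; 1.03 with the array SD as a covariate), with 0.95 at 150 cGy and 0.38 at 600 cGy (adjusted p = 0.273).

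Il6 and the neutrophil chemokines Cxcl1 and Cxcl2 were raised in 2 untreated mice as well. Il6 levels were 7.56, 9.95, 10.24, 7.48 and 8.71 in LPS mice at 150 cGy, and 3.27, 3.57, 7.22, 3.43, 3.16 and 8.59 in untreated mice 1, 4, 5, 6, 7 and 8. Untreated mice 5 and 8 also held the 2 highest untreated Cxcl2 levels (9.49 and 10.30, against 5.63 to 5.91 in the other 4), Cxcl1 levels (7.35 and 8.16, against 4.65 to 4.95) and Cd14 levels (9.70 and 10.49, against 7.50 to 8.58). At 600 cGy Il6 ranged over 7.55 to 9.09 in LPS mice and over 3.67 to 5.28 in untreated mice, with no overlap. The differences were 4.06 ± 0.45 for Il6, 4.22 ± 0.38 for Cxcl2 and 3.90 ± 0.41 for Cxcl1. At 150 cGy the Il6 ranges of the LPS and untreated mice overlapped, and those of Cxcl1 overlapped too, while those of Cxcl2 did not.

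The chemokine list as a whole held 25 measured genes, of which 16 rose and 4 fell (median 0.67). Of all genes 29.0% rose and 26.1% fell. The inflammatory chemokine genes Ccl3 and Ccl4 rose by 4.98 (SE 0.15) and 3.55 (SE 0.14), and Ccl12, a CCR2 ligand of mice, rose by 4.17 (SE 0.14). Cxcl9, a CXCR3 ligand induced by interferon gamma, rose by 3.82 (SE 0.24). LPS mouse 2 of the 600 cGy group stood alone for Cxcl9 at 10.62, against 7.20 to 8.03 in the other 5, and this mouse also had the highest hepatocyte gene level of its group (9.59). With Alb as a covariate the Cxcl9 difference was 3.90.

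Receptors that guide leukocytes fell. Of 24 measured trafficking receptors 14 fell and 5 rose (median -0.57), against 26.1% and 29.0% of all genes. Ccr2, which brings monocytes out of the bone marrow towards CCL2 and CCL12, stood at 6.84, 7.21, 6.68, 7.59 and 7.58 in LPS mice and between 9.74 and 10.49 (median 10.20) in untreated mice at 150 cGy. At 600 cGy it ranged over 6.24 to 7.91 (median 6.84) in LPS mice, against 9.75, 9.82, 9.82, 9.20 and 10.22 in untreated mice. The groups did not overlap at either dose, and Ccr2 fell by 2.92 (SE 0.22, adjusted p = 5.83e-15). Selplg, the selectin ligand on rolling leukocytes, fell by 1.18 (SE 0.13), the integrin Itgb7 by 0.91 (SE 0.11) and S1pr1, which lymphocytes use to leave tissue, by 1.39 (SE 0.17).

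Interferon-induced genes rose nearly as a block. Of 33 measured type I interferon effectors 31 rose and none fell (median 1.34), against 29.0% and 26.1% of all genes. For 20 of the 33 all LPS mice were higher than all untreated mice at each dose, against 2.26% of all genes. Ifit3, an RNA-binding antiviral gene, stood at 10.12, 10.34, 9.94, 10.72 and 10.59 in LPS mice at 150 cGy, against 5.93 to 6.51 (median 6.18) in untreated mice. At 600 cGy it ranged over 9.80 to 10.83 (median 10.43) in LPS mice, against 7.61, 5.84, 7.46, 7.29 and 7.98 in untreated mice. Ifit1 rose by 3.49 (SE 0.14), the ISG15-removing protease gene Usp18 by 3.12 (SE 0.14), Parp14 by 2.33 (SE 0.10) and the RNA sensor gene Dhx58 by 2.11 (SE 0.08; 0.95 with its probe sets averaged). The mean level of the list was 9.73 to 10.04 in LPS mice and 8.01 to 8.38 in untreated mice at 150 cGy, and 9.88 to 10.22 and 8.10 to 8.87 at 600 cGy. Of 20 interferon-inducible GTPases and gamma targets 17 rose and 1 fell (median 1.51), with the guanylate-binding proteins Gbp2 at 3.10 ± 0.13 and Gbp6 at 3.16 ± 0.14, the GTPase Irgm1 at 2.16 ± 0.15, and Cd274, which encodes the checkpoint ligand PD-L1, at 2.61 ± 0.09. The list's 1 fall was in Ciita, the activator of MHC class II genes (-0.62), named after its values were seen. Gbp2b, a guanylate-binding protein outside the list, fell by 2.11 (SE 0.34). Of 14 MHC class I processing genes 8 rose and 3 fell (median 0.45), among them the peptide transporter Tap1 (1.03 ± 0.09, and 0.47 with its probe sets averaged), the immunoproteasome subunit Psmb9 (0.62 ± 0.09) and Tapbp (0.80 ± 0.13).

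Of 25 JAK-STAT feedback and STAT3 target genes 8 rose and 9 fell (median -0.20), shares near those of all genes (29.0% and 26.1%). Cish (1.70 ± 0.10) and Socs1 (2.05 ± 0.15), inhibitors of JAK-STAT signalling, rose, and the receptor genes Ifngr1 and Csf3r, for interferon gamma and for GCSF, fell by 1.21 (SE 0.10) and 1.54 (SE 0.18). Socs3, the inhibitor induced through STAT3, stood at 10.76 ± 0.26 and 10.09 ± 0.59 in LPS and untreated mice at 150 cGy and at 10.30 ± 0.17 and 10.28 ± 0.27 at 600 cGy, a mean difference of 0.34 ± 0.23 (adjusted p = 0.196). With the array SD as a covariate it was 0.67 and passed (adjusted p = 0.046).

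Of 20 measured acute-phase and siderophore genes of leukocytes, those of iron handling included, 12 rose and 3 fell (median 0.88). Over all genes the shares were 29.0% and 26.1%. Slc40a1 encodes ferroportin, the iron exporter of cells, and, with Rgs2, showed the largest fall. It stood at 7.04, 7.19, 6.87, 8.15 and 7.67 in LPS mice, against 9.61 to 10.31 (median 10.04) in untreated mice at 150 cGy. At 600 cGy it ranged over 5.40 to 7.44 (median 6.85) in LPS mice, against 10.45, 9.91, 10.03, 9.95 and 10.65 in untreated mice. Slc40a1 fell by 3.09 (SE 0.25, adjusted p = 5.47e-14), an 8.53-fold change in signal without overlap at either dose. Hfe, an iron regulator outside the list, fell by 2.87 (SE 0.14), and by 1.62 with its probe sets averaged. The siderophore-binding protein gene Lcn2 rose by 1.64 (SE 0.28), Saa3, a serum amyloid of leukocytes, by 1.02 (SE 0.23), the metallothionein Mt2 by 3.04 (SE 0.38) and the pentraxin Ptx3 by 1.27 (SE 0.12).

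Of 24 metabolic and eicosanoid genes of myeloid cells 14 rose and 6 fell (median 0.89), against 29.0% and 26.1% of all genes. The uridine phosphorylase gene Upp1 rose by 3.55 (SE 0.18), Acod1, whose enzyme makes itaconate in activated macrophages, by 3.28 (SE 0.22), the glycolytic regulator Pfkfb3 by 2.47 (SE 0.12) and Nampt, of NAD synthesis, by 2.22 (SE 0.15; 1.30 with its probe sets averaged). The lipoxygenase gene Alox15 fell by 2.80 (SE 0.42). The other large falls were in Rgs2, a regulator of G protein signalling (-3.09 ± 0.17), Cd300ld, a myeloid surface receptor (-2.82 ± 0.19), Wnt2 (-2.80 ± 0.31), Foxd4 (-2.73 ± 0.25), the NADP-dependent dehydrogenase Idh1 (-2.67 ± 0.19), the matrix protein gene Tgfbi (-2.67 ± 0.18) and Pi16 (-2.62 ± 0.19). The other probe set of Pi16 gave 0.31, so its direction rests on the brighter probe set.

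**Figure D2:**
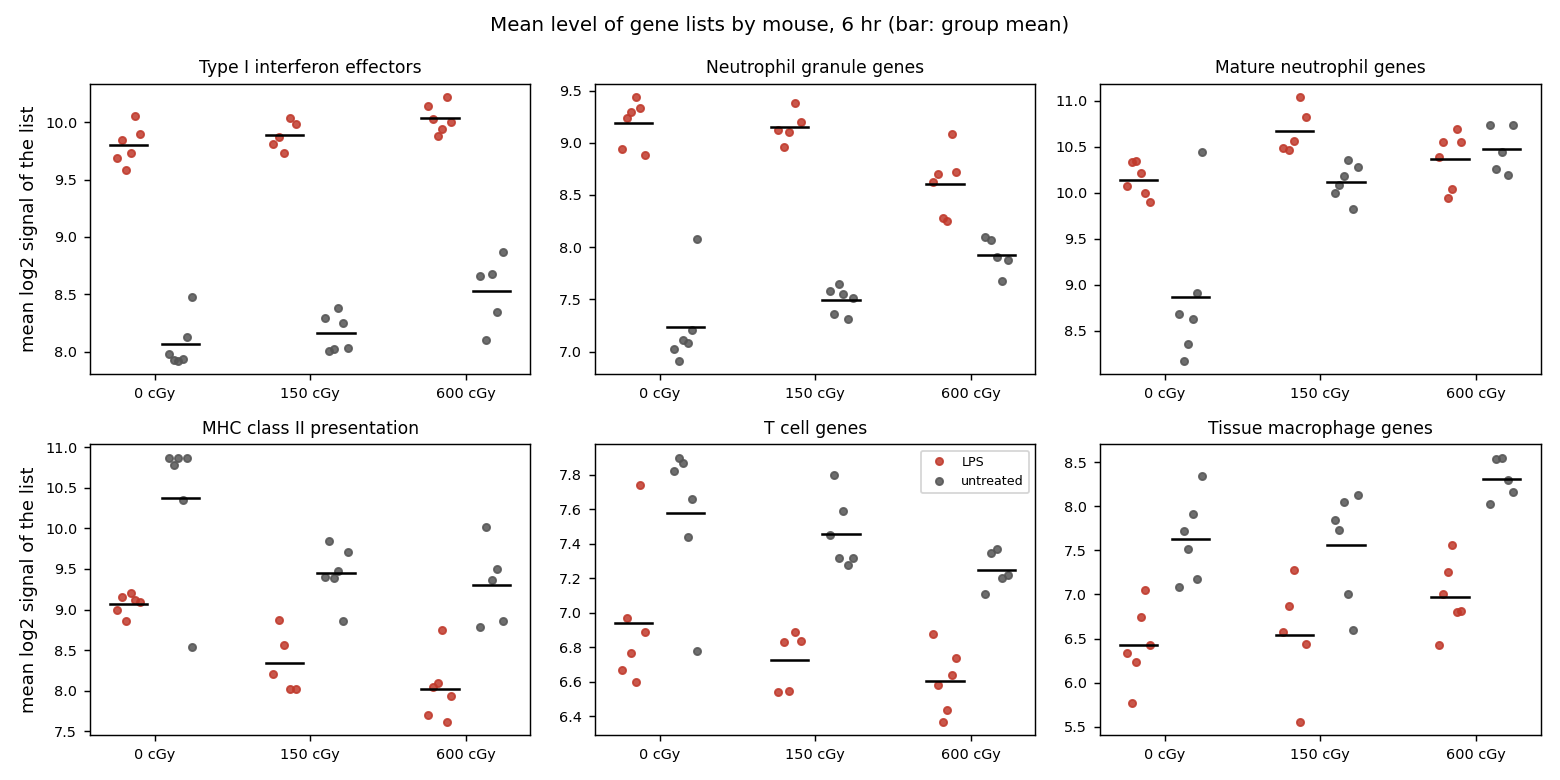
Mean log2 signal over the measured genes of 6 lists (vertical axis) in each LPS mouse (red) and untreated mouse (grey) at 0, 150 and 600 cGy, with bars at group means. The type I interferon list separates the groups at every dose, the mature neutrophil list overlaps at 600 cGy, and 1 untreated 0 cGy mouse (mouse 10) lies apart from its group, high in both neutrophil panels and low in the MHC class II and T cell panels.

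In whole blood, fewer cells of a type and less RNA of its genes per cell cannot be told apart, which applies to all lists of cell type genes. T cell genes fell: 17 of 23 measured fell and 1 rose, with a median of -0.54. Of all genes 26.1% fell and 29.0% rose. Thy1 stood at 7.46, 7.17, 6.42, 6.48 and 7.22 in LPS mice and at 9.01 to 9.91 (median 9.41) in untreated mice at 150 cGy. At 600 cGy it ranged over 5.72 to 6.88 (median 6.10) in LPS mice, against 7.96, 9.29, 8.88, 7.87 and 8.17 in untreated mice. Thy1 fell by 2.33 (SE 0.28) without overlap at either dose, the T cell receptor subunit Cd3g fell by 2.18 (SE 0.28; by 1.41 with the array SD as a covariate), Cd5 by 1.82 (SE 0.20), Cd3d by 1.15 (SE 0.16) and Cd3e by 1.0 (SE 0.16). Of 19 B cell genes 10 fell and 1 rose (median -0.66), and the receptor subunits Cd79a and Cd79b fell by 1.94 (SE 0.32) and 1.89 (SE 0.31). With the array SD as a covariate 5 of the 19 B cell genes and 12 of the 23 T cell genes fell, against 2419 of all 12393 genes. In irradiated mice of the sex and treatment set 5 of the 19 B cell genes rose and 6 fell (median -0.18). Of the 23 T cell genes 3 rose and 12 fell there (median -0.23), against 43.9% and 29.0% of all genes.

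All 9 measured MHC class II presentation genes fell (median -1.41), among them H2-Aa (-1.41 ± 0.21), H2-Eb1 (-1.47 ± 0.23), the peptide loader H2-DMa (-1.42 ± 0.16) and the protease Ctsh (-1.49 ± 0.13). Monocyte and macrophage genes moved apart. Of 22 measured, 13 fell and 5 rose (median -0.51). Csf1r, the receptor for the main growth factor of monocytes, fell by 1.81 (SE 0.14) with Ccr2, whereas Fcgr1, the interferon-induced Fc receptor, and the nuclear receptor gene Nr4a1 rose by 2.57 (SE 0.15) and 2.37 (SE 0.14). In NK and cytotoxic genes 6 of 20 rose and 4 fell (median 0.11), against 29.0% and 26.1% of all genes. The rises were led by Gzmb, which encodes granzyme B (2.47 ± 0.26), and Ifng, which encodes interferon gamma (2.71 ± 0.35). Ifng was uneven among LPS mice, with 5.89, 7.79, 6.00, 6.48 and 8.95 at 150 cGy against 4.10 to 4.81 in untreated mice.

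Genes of tissue macrophages, which line the sinuses of liver and spleen, fell in 8 of 13 cases and rose in 2 (median -0.96). Of all genes 26.1% fell and 29.0% rose. Vsig4 fell by 2.81 (SE 0.43), Cd5l fell by 2.60 (SE 0.42), and C1qa, of the complement C1q complex, by 2.10 (SE 0.39). Of 22 hepatocyte genes Tat alone rose and none fell (median -0.33). The hepatocyte level was 4.99 to 8.83 in LPS mice and 4.65 to 11.07 in untreated mice at 150 cGy, and 5.55 to 9.59 and 4.70 to 8.94 at 600 cGy. With Alb as a covariate the Vsig4 difference was -2.76, and with the array SD as a covariate it was -1.74.

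The 2 neutrophil lists gave different counts. Of 17 granule genes, which neutrophils make while they mature in bone marrow, 12 rose and 3 fell (median 0.92). Ngp, a granule protein of immature neutrophils, stood at 12.90, 12.71, 12.67, 13.11 and 12.96 in LPS mice and at 6.31 to 7.52 (median 6.72) in untreated mice at 150 cGy. At 600 cGy it ranged over 11.40 to 12.48 (median 12.15) in LPS mice, against 8.84, 9.34, 8.43, 7.06 and 8.07 in untreated mice. The groups were far apart at both doses, but closer at 600 cGy. Ngp rose by 4.89 (SE 0.23), Camp, which encodes cathelicidin, by 4.30 (SE 0.21), Ltf, which encodes lactoferrin, by 3.60 (SE 0.18) and Ms4a3, a marker of granulocyte and monocyte progenitors, by 1.27 (SE 0.12). Of 18 mature neutrophil genes 7 rose and 5 fell (median 0.05), against 29.0% and 26.1% of all genes. The chemerin-binding receptor gene Ccrl2 rose by 2.53 (SE 0.09) and Trem1 as above, while Selplg and Csf3r fell. S100a8, an abundant calcium-binding protein of neutrophils, differed by 0.04 ± 0.12 (adjusted p = 0.779).

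The erythroid, globin, platelet and eosinophil lists had medians under 0.4. Over all genes 29.0% rose and 26.1% fell. Of 24 erythroid genes 8 rose and none fell (median 0.19), with Klf1 at 0.61 ± 0.12, and Alas2, the haem synthesis enzyme of red cells, differed by 0.01. All 5 measured globin genes rose (median 0.35) in RNA from which globin had been reduced, and 1 of the 5 rose with the array SD as a covariate. Of 19 platelet genes 3 rose and 1 fell (median 0.07), and the platelet chemokine Pf4 differed by -0.03 (adjusted p = 0.721). The platelet list differed in sign by dose: its median was -0.25 at 150 cGy (none higher and 2 lower) and 0.41 at 600 cGy (5 higher and none lower), and no gene of it passed the test of the difference between doses. Its mean level was 11.01 to 11.32 in LPS mice and 10.70 to 10.92 in untreated mice at 600 cGy, without overlap, and 10.50 to 10.87 and 10.70 to 11.33 at 150 cGy. In 12 eosinophil, basophil and mast cell genes 5 rose and none fell (median 0.28), led by Hdc, the histamine-making enzyme (1.15 ± 0.20). Of 16 endothelial and heart muscle genes 4 rose (median 0.12), and with the array SD as a covariate none did. Of 4 sex-linked genes, Xist fell by 0.74 (SE 0.11), and the Y-linked genes Kdm5d (0.29) and Uty (0.20), both at low signal, lost their calls with that covariate.

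The p53 response to radiation stood beside LPS as follows. Cdkn1a, the p53-induced inhibitor of the cell cycle, was at 9.80 ± 0.34 and 9.79 ± 0.26 in LPS and untreated mice at 150 cGy, and at 10.43 ± 0.28 and 10.71 ± 0.36 at 600 cGy. The difference was -0.13 ± 0.22 (adjusted p = 0.642). Of 26 measured p53 targets 12 fell and 4 rose (median -0.24), against 26.1% and 29.0% of all genes. The DNA repair gene Xpc fell by 1.48 (SE 0.13) and the antioxidant regulator Sesn1 by 1.11 (SE 0.13), while the death receptor Fas rose by 1.53 (SE 0.14) and the kinase Plk2 by 0.91 (SE 0.11). Fas is also a target of NF-kB, and the cause of its rise was not tested.

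Beside the next lists stand the shares of all genes, of which 29.0% rose and 26.1% fell. Of 32 immediate early and stress genes 13 rose and 5 fell (median 0.18). Jun was at 1.85 ± 0.12, Dusp2 at 1.33 ± 0.13 and Klf4 at -2.35 ± 0.19. Of 22 BCL2 family and caspase genes 10 rose and 5 fell (median 0.22), among them the survival gene Birc3 (1.15 ± 0.11, and 0.72 with its probe sets averaged), the LPS-sensing caspase gene Casp4 (1.55 ± 0.20) and Bad (-0.64 ± 0.10, and -0.41 after quantile normalisation). Of 18 heat shock chaperones 7 rose and 1 fell (median 0.24). Of 32 cell cycle genes 7 rose and 2 fell (median 0.08), with the proliferation marker Mki67 at 1.05 ± 0.19 and Ccnd1 at -0.99 ± 0.16. Cytosolic ribosomal protein genes fell in 12 of 24 cases and none rose (median -0.22), for example Rps15 by 0.54 (SE 0.07).

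**Figure D3:**
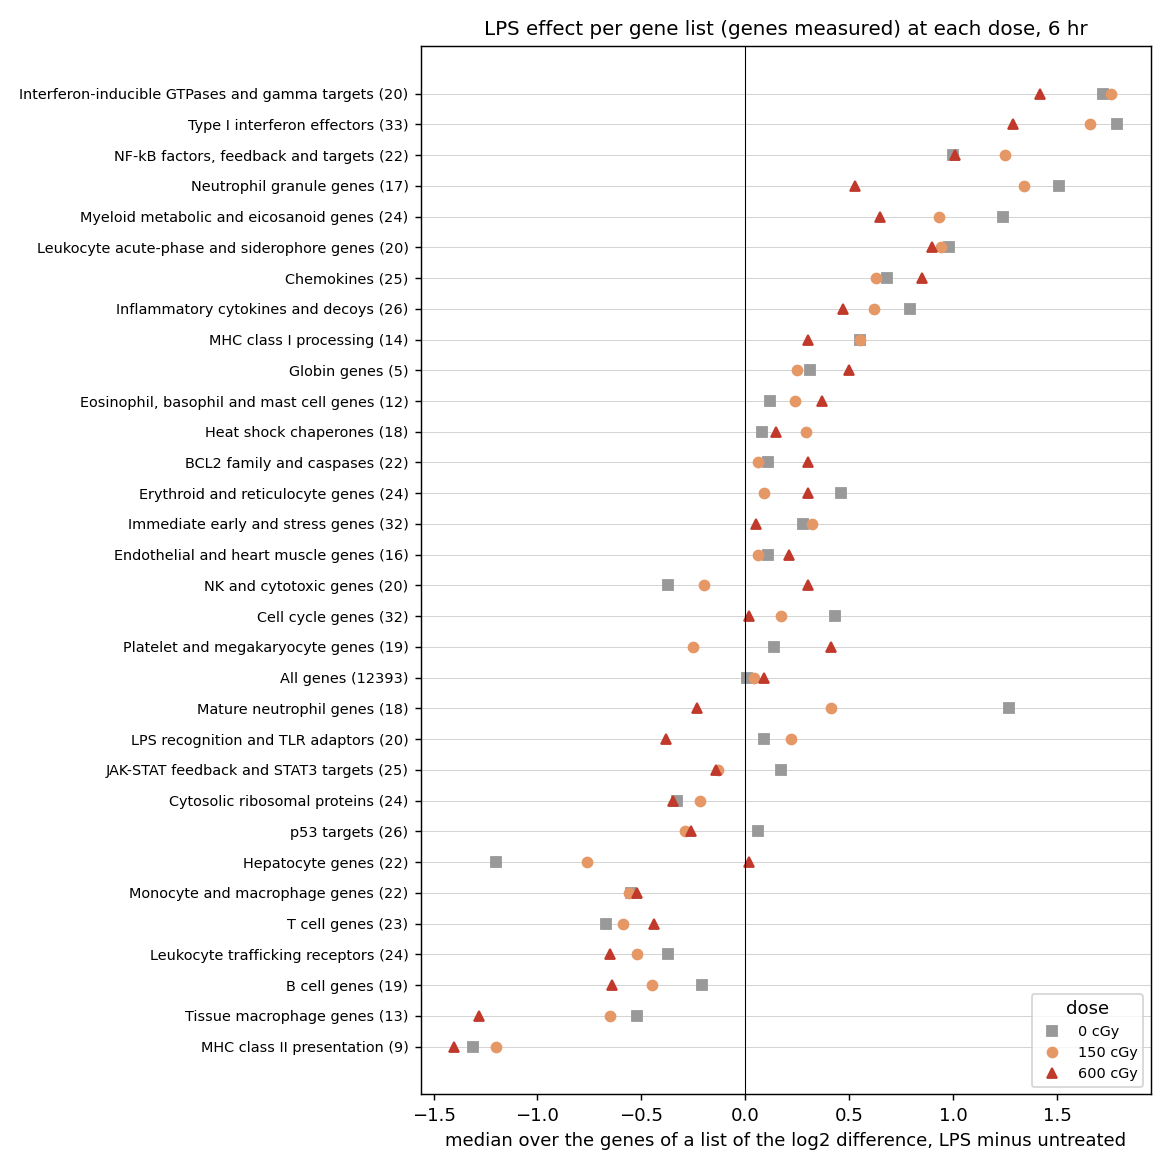
Median over the measured genes of each list of the log2 difference LPS minus untreated (horizontal axis) at 0 cGy (grey squares), 150 cGy (orange circles) and 600 cGy (red triangles). Interferon lists lie highest and MHC class II lowest at all 3 doses. The mature neutrophil list runs from 1.27 at 0 cGy through 0.41 at 150 cGy to -0.23 at 600 cGy. The 0 cGy medians include mouse 10, and without it that of the mature neutrophil list was 1.52.

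At 150 cGy and at 600 cGy most called genes had the same direction. At 150 cGy 1107 genes were higher (8.93%) and 1812 lower (14.6%), 23.6% in all. At 600 cGy 2892 were higher (23.3%) and 2989 lower (24.1%), 47.5% in all. Of the 2919 genes called at 150 cGy, 2753 had the same sign at 600 cGy and 2209 were also called there with it (75.7% of the calls at 150 cGy and 37.6% of those at 600 cGy), while 14 were called with the opposite sign. The difference between the doses itself passed the test for 54 genes (0.436%), 36 with a higher LPS effect at 600 cGy (0.290%) and 18 with a lower one (0.145%), and 1755 genes had an unadjusted p under 0.05. This count rested on single mice: none passed without LPS mouse 4 of the 150 cGy group (1527 at an unadjusted p under 0.05, smallest adjusted p 0.0655) and none without untreated mouse 4 of the 600 cGy group (1406, smallest adjusted p 0.0538), while 147 did without untreated mouse 8 of the 150 cGy group.

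Among the genes that passed, the 2 largest negative differences were in granule genes. The LPS effect on Ngp was 3.70 ± 0.32 at 600 cGy and 6.08 ± 0.32 at 150 cGy, a difference of -2.38 ± 0.45 (adjusted p = 0.0191). For Ltf it was 2.69 ± 0.25 and 4.51 ± 0.25, a difference of -1.82 ± 0.36 (adjusted p = 0.0191). The granule list median was 0.53 at 600 cGy and 1.34 at 150 cGy, and 3 of its 17 genes had a lower LPS effect at 600 cGy, the third being the protease gene Ctsg, named after its values were seen. For some genes the estimated direction turned with dose. Rhoj, a small GTPase gene, stood at 9.35, 8.72, 9.01, 9.17 and 9.37 in LPS mice at 150 cGy, against 9.42 to 10.76 in untreated mice, and at 9.87 to 10.30 in LPS mice at 600 cGy, against 9.59, 9.56, 9.37, 9.25 and 9.48 in untreated mice. Its LPS effect was 0.64 ± 0.22 at 600 cGy and -0.79 ± 0.22 at 150 cGy. Mef2c, a transcription factor of B cells and megakaryocytes among others, had 0.83 ± 0.24 and -0.67 ± 0.24, Cks1b, a cell cycle kinase subunit, -0.76 ± 0.24 and 0.64 ± 0.24, and Rdh12 -0.70 ± 0.20 and 0.53 ± 0.20. The effects of Tspan17 (difference 1.69, adjusted p = 0.0452), Capn3 (1.34, adjusted p = 0.0451) and Atp8a1 (1.23, adjusted p = 0.0361) were higher and that of Cbr3 (-1.31, adjusted p = 0.0433) was lower at 600 cGy. In untreated mouse 7 of the 150 cGy group Tspan17, Rhoj and Capn3 were each the highest of their group, at 10.55, 10.76 and 9.55. The probe sets of Mef2c and of Atp8a1 disagreed in sign for the mean effect of LPS. The difference between doses lost its call in 20 of 32 alternatives for Cks1b, 15 for Rdh12, 14 for Mef2c and 9 for Rhoj. It lost it in 21 for Tspan17, 17 for Capn3, 8 each for Atp8a1 and Cbr3, 3 for Ltf and 2 for Ngp.

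**Figure D4:**
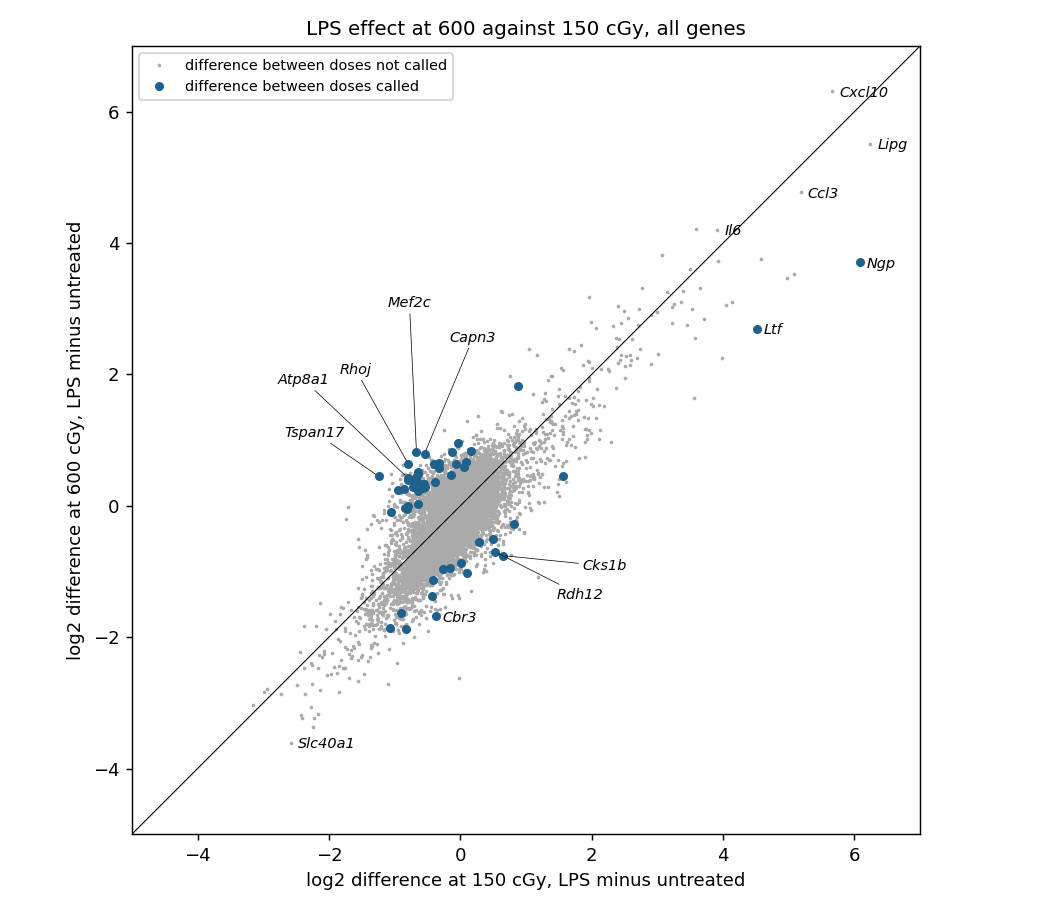
Log2 difference LPS minus untreated at 600 cGy (vertical axis) against that at 150 cGy (horizontal axis) for 12393 genes, with the line of equal effect. Blue points are the 54 genes whose difference between doses passed the test. Cxcl10, Lipg and Ccl3 lie near the line at the upper right, and Ngp and Ltf lie below it.

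Most genes called in irradiated mice had the same sign in unirradiated mice. At 0 cGy 1263 genes were higher with LPS (10.2%) and 1989 lower (16%), 26.2% in all. Without mouse 10 these counts were 1269 and 2152. Of the 6822 genes called in irradiated mice, 6256 had the same sign at 0 cGy and 2704 were called there with it (39.6% of the calls in irradiated mice and 83.1% of those at 0 cGy), against 14 called with the opposite sign. Across genes the differences correlated with a Pearson r of 0.84, a description in which genes are not independent replicates. The LPS effect on Cxcl10 was 5.98 in irradiated mice and 5.10 at 0 cGy (difference 0.88, adjusted p = 0.143). Without mouse 10 the difference was 0.99 (adjusted p = 0.063). The effect on Tnf was 1.82 in irradiated mice and 1.63 at 0 cGy. The difference between irradiated and unirradiated mice passed the test for 159 genes (1.28%), 24 with a higher LPS effect in irradiated mice (0.194%) and 135 with a lower one (1.09%). Without mouse 10 it passed for 371 genes, 75 higher and 296 lower, which held 154 of the 159.

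Genes of both neutrophil lists had lower LPS effects in irradiated mice. Of 18 mature neutrophil genes 8 had a lower LPS effect in irradiated mice, 13 without mouse 10, and none a higher one. Of 17 granule genes 5 were lower, 6 without mouse 10, against 135 and 296 of all 12393 genes. Lcn2 showed the pattern in its levels. LPS mice stood at 12.73 to 13.25 at 0 cGy (median 13.11), at 13.34, 13.09, 13.16, 13.47 and 13.31 at 150 cGy and at 13.06 to 13.28 at 600 cGy (median 13.14). Untreated mice stood at 7.19 to 8.69 at 0 cGy with mouse 10 at 12.04, at 10.90 to 11.75 at 150 cGy (median 11.04) and at 12.41, 11.61, 12.02, 11.82 and 12.19 at 600 cGy. LPS mice stayed between 12.73 and 13.47 at all 3 doses, and the untreated mice were higher at 150 and 600 cGy than the 5 other untreated mice at 0 cGy. The difference between the LPS effects was -2.78 ± 0.47 (adjusted p = 0.000717) and -3.46 ± 0.25 without mouse 10.

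The same order of levels held for Acod1. LPS mice stood at 10.74 to 11.36 at 0 cGy, 10.92 to 11.52 at 150 cGy and 11.24 to 11.68 at 600 cGy. Untreated mice stood at 4.99 to 5.6 at 0 cGy with mouse 10 at 8.28, at 6.57 to 8.10 at 150 cGy and at 7.80 to 9.28 at 600 cGy. The LPS effect of 3.28 in irradiated mice was lower than the 5.17 at 0 cGy by 1.89 (SE 0.38, adjusted p = 0.00404; 2.37 without mouse 10). The decoy receptor gene Il1r2 had an effect of 1.26 in irradiated mice and 3.34 at 0 cGy (difference -2.08, adjusted p = 0.00721). Socs3 had 0.34 and 2.00 (difference -1.65, adjusted p = 0.0163, and -2.11 without mouse 10). Lrg1, a secreted neutrophil glycoprotein, had -1.11 and 1.24 (difference -2.35, adjusted p = 0.00326). In Cdkn1a, which radiation raises, the effect was -0.13 in irradiated mice and 0.81 at 0 cGy, a difference of -0.93 with an adjusted p of 0.262 with mouse 10 and of -1.47 with an adjusted p of 1.91e-05 without it. For p53 targets as a list 1 of 26 effects was lower in irradiated mice, and 6 were without mouse 10 (135 and 296 of all 12393 genes). Mouse 10 was set apart by its Cdkn1a level and other genes that differ with radiation. The values without it for Cdkn1a and p53 targets are therefore no separate test.

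**Figure D5:**
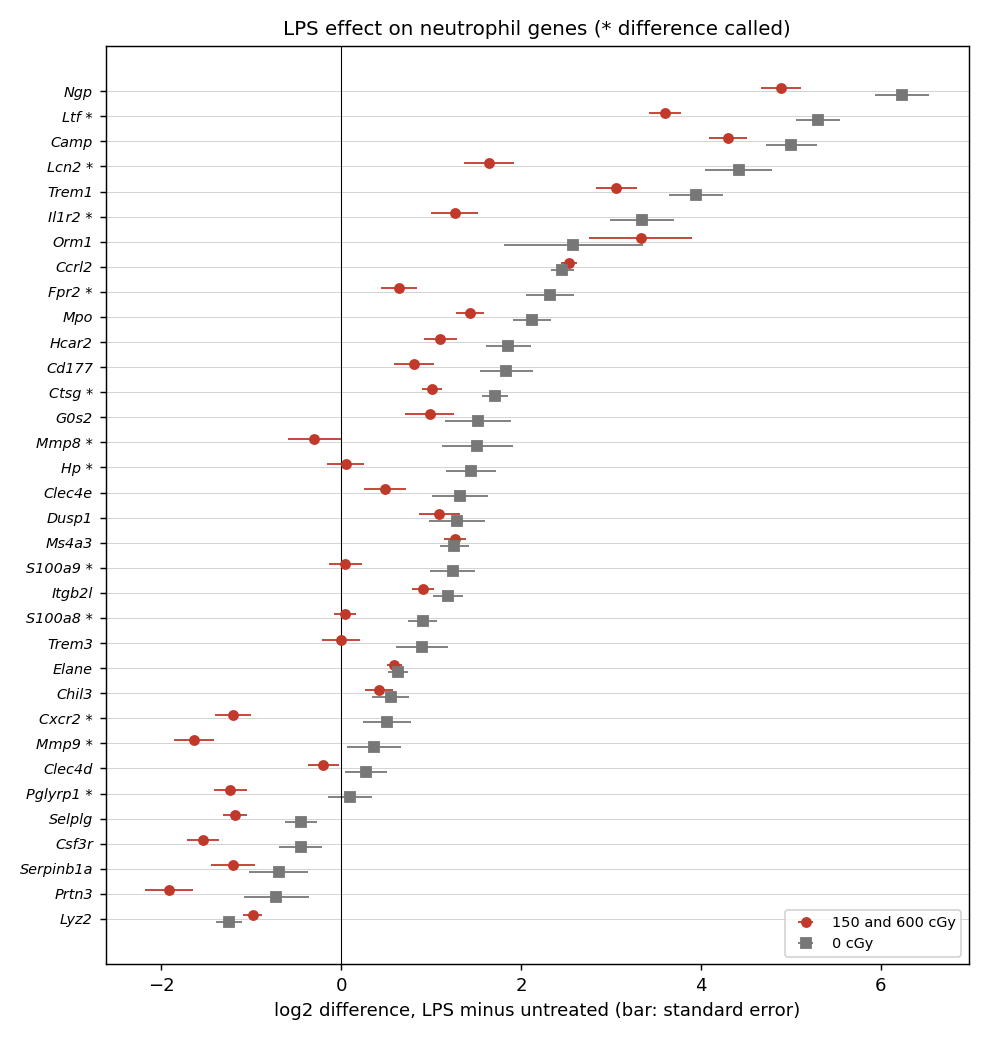
Log2 difference LPS minus untreated (horizontal axis, bars are SE of the fit) for the measured genes of the 2 neutrophil lists in irradiated mice (red circles, mean of 150 and 600 cGy) and at 0 cGy (grey squares). A star marks genes whose effects differed by the test, mouse 10 included. Of the 18 mature neutrophil genes 17, and of the 17 granule genes 14, have the lower value in irradiated mice.

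In Prg2 it was the level of the LPS mice that differed with dose, and in Foxd4 that of the untreated mice. Prg2, which encodes the major basic protein of eosinophil granules, stood at 5.71 to 8.14 in LPS mice at 0 cGy (median 7.14), at 4.50, 4.90, 4.01, 3.97 and 4.0 at 150 cGy and at 4.06 to 4.77 at 600 cGy (median 4.38). Untreated mice stood at 3.26 to 3.99 at 0 cGy, 3.51 to 3.85 at 150 cGy and 3.50 to 4.19 at 600 cGy. The effect was 0.53 ± 0.16 in irradiated mice and 3.33 ± 0.22 at 0 cGy, a difference of -2.80 ± 0.27 (adjusted p = 3.03e-09) that had the same value without mouse 10. Foxd4, a forkhead factor, had an effect of -2.73 in irradiated mice and -0.47 at 0 cGy (adjusted p of the difference 0.00261). Its levels were 4.21 to 5.37 in irradiated LPS mice and 6.58 to 8.25 in irradiated untreated mice, and 4.32 to 5.23 in unirradiated LPS mice and 4.30 to 5.16 in unirradiated untreated mice other than mouse 10, at 7.75. Slc40a1 fell by 3.09 in irradiated mice and by 1.5 at 0 cGy (difference -1.60, adjusted p = 0.0440). Without mouse 10 this difference was -1.96 (adjusted p = 0.000925).

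Genes with a higher LPS effect in irradiated mice were fewer. Crisp3, a cysteine-rich secretory protein gene, had effects of -0.16 in irradiated mice and -2.18 at 0 cGy (difference 2.02, adjusted p = 0.00216). Its untreated levels were 2.79 to 4.2 at 150 cGy and 2.66 to 3.04 at 600 cGy. At 0 cGy they were 4.78 to 6.32 apart from mouse 10, at 2.92. The lowest deposited signal was 2.17, so little room was left for a fall in irradiated mice. The complement receptor gene Cr2 of mature B cells had effects of 0.01 and -1.72 (difference 1.73, adjusted p = 0.00473). In Cr2 the irradiated groups lay between 3.73 and 5.12 with or without LPS, and at 0 cGy LPS mice lay at 4.12 to 4.77 and untreated mice other than mouse 10 at 6.13 to 6.99. Hpgd, a prostaglandin-degrading enzyme (difference 1.67, adjusted p = 0.0182), Gm20559 (1.21, adjusted p = 0.00328) and the receptor P2ry14 (1.18, adjusted p = 0.0443) were the other genes named by the rule. The 2 probe sets of Hpgd gave -0.74 and 0.01 for the LPS effect in irradiated mice. The difference in P2ry14 lost its call in 22 of 44 alternatives, with adjusted p-values up to 0.101. P2ry14 rose in irradiated mice by 1.68 (SE 0.19) and differed by 0.50 at 0 cGy (adjusted p = 0.145).

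In the sex and treatment set, with its own untreated mice, the LPS response of irradiated mice mostly had the same sign. There 43.9% of the genes were higher and 29.0% lower, 73.0% in all, for the mean effect over 200, 300 and 600 cGy and both sexes. Of the 6822 genes called in the small set, 6473 had the same sign and 5707 were called with it in the other set (83.7% of the calls of the small set and 63.1% of those of the other), and 60 were called with the opposite sign. The LPS effect was 5.98 in the small set and 4.81 in the other for Cxcl10, 4.89 and 3.58 for Ngp, and -2.92 and -2.54 for Ccr2. At 600 cGy, the dose both sets hold, the difference between sets passed the test for 531 genes (4.28%), 159 higher in the small set (1.28%) and 372 lower (3.00%). The order of these 2 counts turned when arrays were centred on their median, with 283 higher and 206 lower.

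The difference between sets at 600 cGy was largest for Il6 (3.01, adjusted p = 0.0194) and Ccl12 (3.00, adjusted p = 8.4e-09), followed by the prostaglandin E synthase gene Ptges (2.03), Cxcl9 (1.86) and the protease inhibitor Timp1 (1.84). Of the 25 chemokines 6, and of the 26 cytokines and decoys 5, had a higher LPS effect in the small set, and none a lower one. Of all genes 1.28% were higher and 3.00% lower. Ccl12 stood at 6.72 to 8.17 in LPS mice, against 3.43, 3.53, 3.54, 3.62 and 3.96 in untreated mice of the small set at 600 cGy, an effect of 3.75 ± 0.20, and its effect in the other set was 0.75 ± 0.25. On the lower side were Cd79a (-2.34, adjusted p = 8.58e-05), Wnt2 (-2.27), Gbp2b (-2.25), Ltc4s (-2.07) and Igfbp4 (-1.92). The effect on Cd79a at 600 cGy was -2.20 ± 0.45 in the small set, from levels of 5.81 to 7.43 in LPS mice and of 7.87, 10.14, 9.14, 9.22 and 7.91 in untreated mice, and 0.14 ± 0.18 in the other set. The labels give the sex of the mice in the other set only, and the dose and timing of LPS in neither. All small-set arrays had the Xist and Eif2s3y pattern of females. Sex, LPS dose, LPS timing and set therefore cannot be told apart. The effect in the other set is a mean over females and males, and its females and males were not compared with the small set separately.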

How the data were processed

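Total RNA of PAXgene-preserved blood, reduced in globin transcripts per the labels' protocols, had been hybridised to Affymetrix mouse 430A 2.0 arrays. The deposited table holds log2 signals for 22690 probe sets, made with RMA and the affy package per the submitters' processing notes. Versions and the arrays normalised together are not given in the sources used here, and no raw intensity was used. Left out were 64 control probe sets, 1555 that the annotation tied to no gene and 691 that it tied to more than 1. The other 20380 stood for 12393 genes, each taken as its probe set of highest mean over all 536 arrays. Values were not normalised again. One limma model (limma 3.58.1 in R 4.3.3, lmFit, contrasts.fit and eBayes) with a mean for each of 9 groups was fitted to all 50 arrays of the small set, and its contrasts were LPS minus untreated at each dose, the mean of 150 and 600 cGy, and the differences between doses. The sex and treatment set was fitted by itself for its mean effect, and in 1 model with the small set for the difference at 600 cGy. Benjamini-Hochberg adjustment ran over all genes, at 0.05. The model was tested on simulated data with known changes in a small part of the genes and independent normal noise. That setting lacks the many changed genes and outlying mice of these data, so it gives no error rate for them. The genes named were the 12 largest rises and 12 largest falls of the mean effect with 1 sign at both doses among genes that passed, the 5 largest in each direction of each difference among genes that passed, the 4 of smallest p in each of 32 lists, and Cd14, Tlr4, Il1b, Tnf, Il10, Socs3, Saa3, Lcn2, Acod1, Cdkn1a, S100a8, Cd79a, Cd3e, Alas2 and Pf4 in any case. The members, the lists (612 genes) and the rule were chosen with earlier results of these data known, and alternatives concern the normalisation, the probe set rule, filters, array weights, the replicate block and the left-out mice. Listed genes without a probe set used here were not analysed here. Mouse numbers were not taken to pair the samples.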

Additional observations from a re-analysis of the deposited data

Results flagged for a closer look

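Of 592 groups of mice examined gene by gene, 38 held a mouse that stood apart from the rest by Dixon's criterion, which chance meets in about 1 of 20 groups. LPS mouse 2 at 600 cGy held 5 of them, all high: Cxcl9 at 10.62 (nearest mouse 8.03) and the hepatocyte genes Tat at 7.40 (5.88), Cyp2e1 at 8.77 (5.87), Apoc3 at 10.54 (5.93) and Hpx at 11.99 (8.2). Untreated mouse 7 at 150 cGy held 7. It was low for Vsig4 at 4.37 (nearest 7.49), Gbp6 at 5.65 (5.99), Klf4 at 6.84 (7.28), Rps4x at 12.12 (12.66) and Xist at 11.28 (11.75), and high for Klf1 at 7.03 (6.53) and Dnajb4 at 8.44 (8.07). LPS mouse 4 at 600 cGy was high for Cd37 at 8.94 (8.35), Rpl8 at 11.94 (11.69) and Cdkn1a at 11 (10.39), and low for Clec1b at 12.37 (12.76), Xpc at 5.29 (5.9) and Rrm2 at 7.74 (8.23).

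The other LPS mice that stood apart were, at 150 cGy, mouse 3, low for Il10 at 5.29 (6.77) and Rpl8 at 11.54 (11.71), mouse 4, low for Tnip1 at 9.26 (9.77), and mouse 8, low for Mt2 at 8.57 (10.58). At 600 cGy they were mouse 1, high for Cd180 at 6.28 (5.88), mouse 5, high for Fcgr1 at 10.52 (10.09), and mouse 6, high for Ccrl2 at 9.51 (9.05). Untreated mice at 150 cGy were mouse 1, low for Mki67 at 6.29 (7.02), mouse 4, low for Hfe at 7.75 (8.10), mouse 6, high for Lcn2 at 11.75 (11.14), and mouse 8, low for Uty at 3.13 (3.37). Untreated mice at 600 cGy were mouse 1, low for Il10 at 3.34 (3.59) and high for Tie1 at 5.15 (4.48), mouse 3, high for Camp at 7.85 (6.31), and mouse 4, high for Idh1 at 10.18 (10.09), Pfkfb3 at 7.51 (7.02) and Cd3e at 9.43 (9.28). There too were mouse 5, low for Tgfbi at 10.84 (11.03), and mouse 7, low for Wnt2 at 7.64 (8.52) and Alas2 at 14.26 (14.37).

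The LPS effect differed by a test of the difference, in limma with adjustment over all genes, for the genes named in each such comparison. Between 600 and 150 cGy the log2 differences were 1.69 for Tspan17, 1.49 for Mef2c, 1.43 for Rhoj, 1.34 for Capn3 and 1.23 for Atp8a1, and -2.38 for Ngp, -1.82 for Ltf, -1.40 for Cks1b, -1.31 for Cbr3 and -1.24 for Rdh12. None of these 10 passed without LPS mouse 4 at 150 cGy. Between irradiated and unirradiated mice they were 2.02 for Crisp3, 1.73 for Cr2, 1.67 for Hpgd, 1.21 for Gm20559 and 1.18 for P2ry14, and -2.80 for Prg2, -2.78 for Lcn2, -2.35 for Lrg1, -2.26 for Foxd4 and -2.08 for Il1r2. Without untreated mouse 10 at 0 cGy they were 2.47, 2.2, 2.01, 1.44 and 1.17 for the first 5 genes and -2.80, -3.46, -3.01, -2.79 and -2.68 for the other 5, in the same order. Between the small set and the sex and treatment set at 600 cGy they were 3.01 for Il6, 3.00 for Ccl12, 2.03 for Ptges, 1.86 for Cxcl9 and 1.84 for Timp1, and -2.34 for Cd79a, -2.27 for Wnt2, -2.25 for Gbp2b, -2.07 for Ltc4s and -1.92 for Igfbp4. With Alb as a covariate the mean LPS effect on Hpx, 0.82 in the model without it (adjusted p = 0.414), was 1.42 with an adjusted p of 0.00011.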

How the results depend on the processing

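The mean LPS effect in irradiated mice called 6822 genes, and 6207 to 7286 when 1 mouse was left out. It called 4044 with the array SD as a covariate, chosen after seeing the data (1625 higher and 2419 lower, 3047 of them among the 6822), and 2372 with a log2 difference of at least 0.5 also required. Leaving out 1 mouse gave 2418 to 3386 genes at 150 cGy and 4721 to 5995 at 600 cGy. Requiring a log2 difference of at least 0.5 gave 1910 at 150 cGy and 3308 at 600 cGy, and the array SD as a covariate gave 3084 at 600 cGy. Centring arrays on their median moved the split towards higher genes, to 4832 higher and 2798 lower for the mean effect (3589 and 3233 without it), 1572 and 1605 at 150 cGy (1107 and 1812) and 4203 and 2606 at 600 cGy (2892 and 2989), where the order turned; leaving out dim genes gave 1966 and 3083 for the mean effect. The difference between doses was the least settled: 54 genes, against 204 with the mouse number as a replicate block, 14 with a trended and robust prior, 222 with array weights and 169 with only the groups compared. Leaving out 1 mouse gave 0 to 147 and moved it by over 1.5 times in 19 of 22 fits, all but those without LPS mouse 3 at 150 cGy, LPS mouse 4 at 600 cGy and untreated mouse 1 at 600 cGy. The difference between irradiated and unirradiated mice called 159 genes, 314 with the replicate block, 443 with array weights and 281 with the array SD as a covariate. Leaving out 1 mouse gave 85 (without untreated mouse 8 at 0 cGy) to 371 (without untreated mouse 10), with 97 without LPS mouse 8 and 102 without untreated mouse 9 at 0 cGy. The difference between sets called 531 genes and 2190 with array weights. The causes were not tested.

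Samples with the same number in different groups correlated from -0.43 to 0.27 in their deviations (mean 0.02), so the numbers were not taken to pair the mice, and the replicate block gave 7143 genes for the mean effect, 3079 at 150 cGy and 6512 at 600 cGy. Of 178 gene results 138 kept direction and side of the threshold under every alternative run. Signs turned only in genes with no call: Eif2s3y (0.0386 with arrays centred and 0.0034 without untreated mouse 5 at 600 cGy, the range over left-out mice being -0.0454 to 0.0034), Tlr4 (0.035 with probe sets averaged and 0.3436 with the array SD), S100a8 (-0.0034 after quantile normalisation), Alas2 (-0.0364 after quantile normalisation and -0.0394 with the array SD) and Pf4 (0.0318 with arrays centred). The number of arrays and a signal near background limit what low genes can show.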
